A study of Mus musculus with 4 samples.

Results

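The regions described here were the promoters of noncoding RNA genes in mouse visceral fat. They were the start sites of genes for which RefSeq curates noncoding transcripts and no protein-coding one, on chromosomes 1 to 19 of mm10, more than 2 kb from any start site of a curated coding transcript. Each region ran 500 bp to either side of the start. The rule found 3977 start sites in 3846 genes, out of 30177 curated start sites on these chromosomes and 31601 on all chromosomes. Before the distance rule there were 5154 noncoding start sites, of which 1177 lay within 2 kb of a coding start and were left out. By symbol and transcript length the members comprised 2828 start sites of long noncoding genes, 960 of microRNA genes, 87 of snoRNA genes and 102 of other small RNA genes. The last class held 33 genes of 5S rRNA, 10 snRNA genes including 7SK, and Y RNA and telomerase RNA genes. It also held 40 microRNA genes and 11 snoRNA or guide RNA genes by RefSeq's annotation, whose symbols did not place them in those classes, so that the classes are not sharply apart. The rule itself uses annotation and no measured value.

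Accessibility was assayed by ATAC-seq, in which a transposase cuts and tags open chromatin, in adult visceral adipose tissue at 8 weeks of age. All 4 libraries came from CD-1, an outbred mouse stock. The 2 control libraries came from descendants of dams that received the vehicle, sesame oil, and the 2 BPA libraries from descendants of dams that received bisphenol A, a plasticiser, by intraperitoneal injection at 50 mg/kg from embryonic day 7.5 to 13.5. The labels call the BPA animals the F3 generation and the study's text calls them F4, and the sex of the animals and the batch of the libraries were not labelled. The study's text speaks of 4 mice for these 4 libraries, and the labels do not tie a library to an animal.

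The authors called peaks in each library alone, and a start site was scored as open in a library when any base of a peak lay in its region. The rank of a peak is its place in the list of its own library by q-value, in percent of that list, so that a rank near 0 is among the strongest peaks and a rank near 100 among the weakest. The lists held between 72375 and 98060 peaks. The lowest local background behind a peak grows with depth. By this measure BPA 2, at 3.80, was the deepest library and BPA 1, at 1.16, the least deep, with the controls between them at 2.85 and 2.70. Promoters of all 7 adipocyte markers were open in every library. Promoters of endothelial markers were open at 2 of 8 in each control and 8 of 8 in each BPA library, and those of leukocyte markers at 2, 3, 4 and 4 of 6 in the order control 1, control 2, BPA 1 and BPA 2. Among the endothelial markers the best ranks ran from 32.4 to 90.3 at Kdr and Tek in the controls, while Pecam1, Cdh5, Tie1, Egfl7, Erg and Emcn had no peak in either control. None of the 3 hepatocyte markers had a peak in any library. In the same order of libraries, mesothelial markers were open at 2, 2, 2 and 1 of 3 and epithelial markers at 2, 0, 1 and 1 of 3. Germ cell markers were open at 0, 1, 1 and 2 of 4. Among these, Dazl ranked at 8.27 in BPA 2, and Sycp3 at 84.9 in control 2, 89.7 in BPA 1 and 63.1 in BPA 2.

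Long noncoding genes are mostly transcribed by RNA polymerase II from promoters of their own, and many give spliced and polyadenylated transcripts. MicroRNAs are cut from hairpins in longer primary transcripts, and most snoRNAs are released from introns of a host gene, so that the annotated start of such a gene is the 5′ end of the hairpin or of the processed RNA and not the place where transcription begins. A few small RNAs, among them 7SK, the Y RNAs and 5S rRNA, have a promoter of their own and are transcribed by RNA polymerase III. In fat, noncoding RNAs are known as regulators of adipocyte differentiation and as products of imprinted loci.

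The sequences below are given for the members on which the results turn. They are RefSeq's, on GRCm38.p6, and belong to the reference strain rather than to CD-1. The promoters hold 250 bases before and 50 bases from the start onward, written 5′ to 3′ on the strand of the gene. Capitals mark matches, on either strand, to 8 short motifs. The core promoter motifs were the TATA box, searched as TATAAA, the CCAAT box and the GC box, searched as GGGCGG. The motifs of factor families were that of ETS factors, searched as CCGGAAG, the cyclic AMP response element or CRE, searched as TGACGTCA, the AP-1 motif, searched as TGANTCA, part of the NRF1 motif, searched as GCATGCGC, and the YY1 motif, searched as AAGATGGC. None of these motifs contains another. The first 4 were open in all libraries, and the last 3 in both BPA libraries and neither control.
1700028E10Rik, chr5:151368425-151368724, plus strand: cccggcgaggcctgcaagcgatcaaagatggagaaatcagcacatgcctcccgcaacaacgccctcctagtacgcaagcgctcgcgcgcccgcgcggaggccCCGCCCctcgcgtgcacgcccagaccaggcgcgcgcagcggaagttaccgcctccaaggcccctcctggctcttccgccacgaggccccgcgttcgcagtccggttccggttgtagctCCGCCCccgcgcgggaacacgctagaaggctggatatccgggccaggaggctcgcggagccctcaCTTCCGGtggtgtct
Dancr, chr5:74092810-74093109, plus strand: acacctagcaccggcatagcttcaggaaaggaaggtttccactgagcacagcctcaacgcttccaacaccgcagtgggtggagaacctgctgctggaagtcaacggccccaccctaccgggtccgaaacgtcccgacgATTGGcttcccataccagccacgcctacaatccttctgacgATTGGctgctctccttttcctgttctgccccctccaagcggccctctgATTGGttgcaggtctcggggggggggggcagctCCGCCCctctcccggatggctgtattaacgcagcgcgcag
Snhg8, chr3:123508287-123508586, minus strand: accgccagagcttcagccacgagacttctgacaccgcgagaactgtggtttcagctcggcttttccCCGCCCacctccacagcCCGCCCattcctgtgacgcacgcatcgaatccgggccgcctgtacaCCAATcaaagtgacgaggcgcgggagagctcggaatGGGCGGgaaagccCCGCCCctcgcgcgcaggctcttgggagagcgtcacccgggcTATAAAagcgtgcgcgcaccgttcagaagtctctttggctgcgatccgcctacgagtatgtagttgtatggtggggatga
Malat1, chr19:5802623-5802922, minus strand: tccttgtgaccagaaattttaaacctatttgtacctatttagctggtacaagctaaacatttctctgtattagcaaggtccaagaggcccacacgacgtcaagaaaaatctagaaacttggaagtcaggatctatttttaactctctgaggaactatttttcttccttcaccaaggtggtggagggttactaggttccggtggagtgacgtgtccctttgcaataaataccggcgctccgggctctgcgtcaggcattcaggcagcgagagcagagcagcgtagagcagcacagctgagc
9430078K24Rik, chr12:79936215-79936514, minus strand: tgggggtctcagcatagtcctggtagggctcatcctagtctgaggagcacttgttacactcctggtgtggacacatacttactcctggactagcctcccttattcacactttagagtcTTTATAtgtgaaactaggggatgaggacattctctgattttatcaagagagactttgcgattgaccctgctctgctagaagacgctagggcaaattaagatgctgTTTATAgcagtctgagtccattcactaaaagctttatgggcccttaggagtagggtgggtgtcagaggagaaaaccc
Gm32865, chr16:87128390-87128689, minus strand: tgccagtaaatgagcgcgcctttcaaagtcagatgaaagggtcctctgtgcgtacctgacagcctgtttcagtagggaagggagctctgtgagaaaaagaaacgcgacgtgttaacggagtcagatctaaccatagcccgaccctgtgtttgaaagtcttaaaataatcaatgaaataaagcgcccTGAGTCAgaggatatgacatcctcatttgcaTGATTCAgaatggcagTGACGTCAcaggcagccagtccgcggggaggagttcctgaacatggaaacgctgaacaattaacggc
Gm13387, chr2:25145438-25145737, minus strand: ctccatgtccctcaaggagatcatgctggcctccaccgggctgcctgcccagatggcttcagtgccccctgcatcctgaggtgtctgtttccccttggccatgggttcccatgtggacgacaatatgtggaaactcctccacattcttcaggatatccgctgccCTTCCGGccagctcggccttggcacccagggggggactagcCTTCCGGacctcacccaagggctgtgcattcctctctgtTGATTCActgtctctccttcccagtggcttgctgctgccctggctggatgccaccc

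The mature microRNAs below are written with the seed, bases 2 to 8, in capitals. The first 6 have a hairpin whose start was open in all libraries, the next 4 one that was open in both BPA libraries and neither control, and the last 4 one that was open in both controls and neither BPA library. miR-132 and miR-212 have the same seed, as do the 5p products of Mir344, Mir344c and Mir344g, and miR-199a-3p and miR-199b-3p are the same sequence from different loci.
mmu-miR-210-3p (Mir210, chr7:141221407-141221428, minus strand): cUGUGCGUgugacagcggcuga
mmu-miR-30a-5p (Mir30a, chr1:23272274-23272295, plus strand): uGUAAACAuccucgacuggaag
mmu-miR-148a-3p (Mir148a, chr6:51269829-51269850, minus strand): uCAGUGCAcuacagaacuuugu
mmu-miR-132-3p (Mir132, chr11:75173723-75173744, plus strand): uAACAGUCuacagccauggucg
mmu-miR-212-3p (Mir212, chr11:75173443-75173464, plus strand): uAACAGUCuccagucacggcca
mmu-miR-199a-3p (Mir199a-2, chr1:162217883-162217904, plus strand): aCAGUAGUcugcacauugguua
mmu-miR-199b-3p (Mir199b, chr2:32318524-32318545, plus strand): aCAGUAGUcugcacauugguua
mmu-miR-9-5p (Mir9-1, chr3:88215613-88215635, plus strand): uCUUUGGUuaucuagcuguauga
mmu-miR-9-5p (Mir9-3, chr7:79505279-79505301, plus strand): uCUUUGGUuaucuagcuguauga
mmu-miR-142a-3p (Mir142, chr11:87756903-87756925, plus strand): uGUAGUGUuuccuacuuuaugga
mmu-miR-344-5p (Mir344, chr7:61877819-61877844, minus strand): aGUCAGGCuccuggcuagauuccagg
mmu-miR-344-3p (Mir344-2, chr7:61940036-61940058, minus strand): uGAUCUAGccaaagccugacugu
mmu-miR-344c-5p (Mir344c, chr7:61837363-61837385, minus strand): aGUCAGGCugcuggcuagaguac
mmu-miR-344g-5p (Mir344g, chr7:61982335-61982355, minus strand): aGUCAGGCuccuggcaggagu

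Most members had no peak in this tissue. A lack of a peak is not a measurement of closed chromatin, since it also depends on depth and on how well reads can be placed. A peak reached 702 and 694 members in the controls and 766 and 959 in the BPA libraries, which is 17.7%, 17.5%, 19.3% and 24.1% of the 3977. No library had a peak at 2845 members (71.5%), and all 4 libraries had one at 473 (11.9%), in 434 distinct regions since neighbouring start sites can share a peak. Among all curated start sites of these chromosomes, 51.1% were open in all 4 libraries. Start sites of coding genes were open at 61.7%, 60.2%, 63.5% and 67.3% in the same order. The gap between coding and noncoding shares was 43.6 percentage points ± 0.678 (SD over the 4 libraries). Noncoding start sites left out for lying within 2 kb of a coding start were open at between 71.5% and 80.5%. These shares carry counting error only: the Wilson 95% interval for the members ran from 16.5% to 18.9% in control 1 and from 22.8% to 25.5% in BPA 2.

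The classes differed within every library. Long noncoding start sites were open at 21.0%, 20.6%, 22.4% and 28.1%, in the order control 1, control 2, BPA 1 and BPA 2. microRNA hairpins were open at 8.23%, 8.65%, 10.7% and 12.8%. In each library the interval of the microRNA class lay below that of the long noncoding class, with upper bounds of 10.1% against lower bounds of 19.5% in control 1 and 15.1% against 26.5% in BPA 2. snoRNA genes, of which there were only 87, were open at between 10.3% in BPA 1 and 19.5% in BPA 2, with intervals as wide as 12.6% to 29.1% in BPA 2. Other small RNA genes were open at 16.7% in both controls, 19.6% in BPA 1 and 22.5% in BPA 2.

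**Figure D1:**
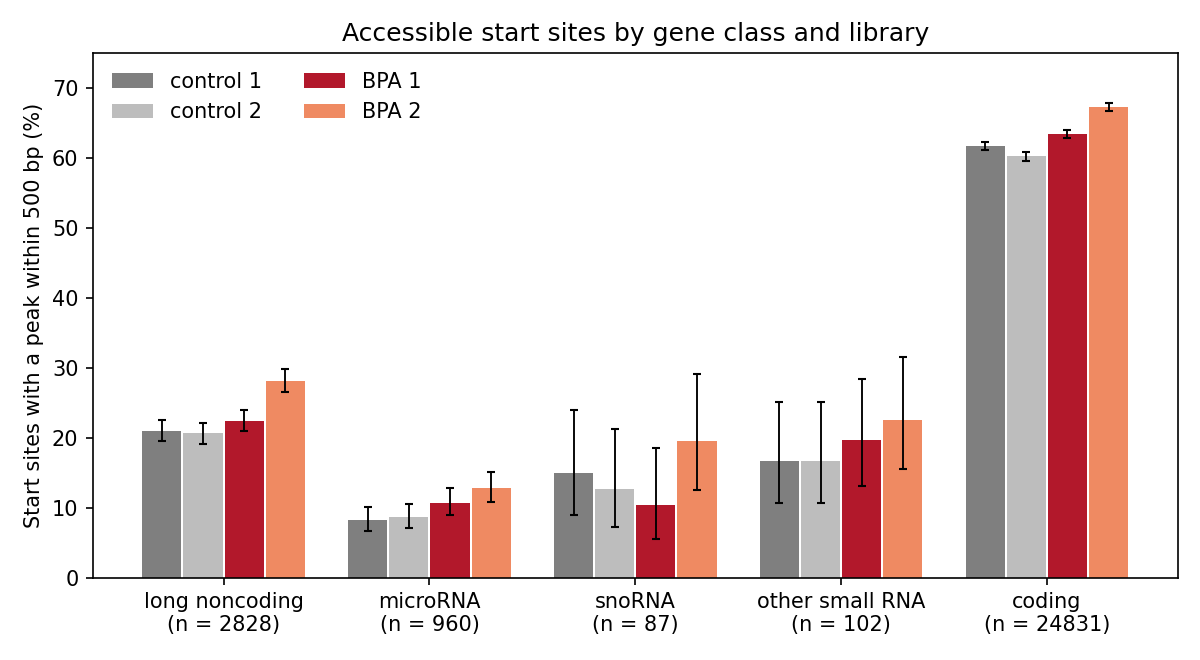
Share of start sites with a peak within 500 bp (vertical axis, percent), by gene class and library; bars are single libraries and error bars are Wilson 95% intervals, which cover counting error only. Coding start sites stand above 60% in every library, long noncoding start sites between 20.6% and 28.1%, and microRNA hairpins between 8.23% and 12.8%.

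Peaks at long noncoding genes were most frequent at the annotated start. Averaged over the libraries, peaks covered 16.8% of long noncoding starts at the start itself, which was the maximum, and 3.12% beyond 4 kb, a ratio of 5.38. For coding genes these values were 58.0%, 2.40% and 24.2. Among the 406 long noncoding start sites open in all 4 libraries, the median distance of the summit from the start, without regard to direction, was between 145 and 176 bp, and the summit lay within 100 bp at 35.7% to 38.7% and within 500 bp at 80.3% to 85.0%. The same distance was between 102 and 119 bp at the 14047 coding start sites open in all 4.

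microRNA hairpins had no such maximum. Peaks covered 5.42% of them at the 5′ end of the hairpin and 5.08% beyond 4 kb, a ratio of 1.07. The highest cover, 6.88%, lay 2.6 kb upstream. At the 44 hairpins open in all 4 libraries the summit lay within 100 bp of the hairpin start at only 3 to 5, and its median distance was 316.5 to 340.5 bp. Around snoRNA genes the maximum of 27.3% lay 2.7 kb upstream, and cover at the start of the snoRNA was 8.91%. The 2 kb rule had removed snoRNAs closer to the start of a coding host, which bears on the place of that maximum. Other small RNA genes again had their maximum at the start, at 14.7%.

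**Figure D2:**
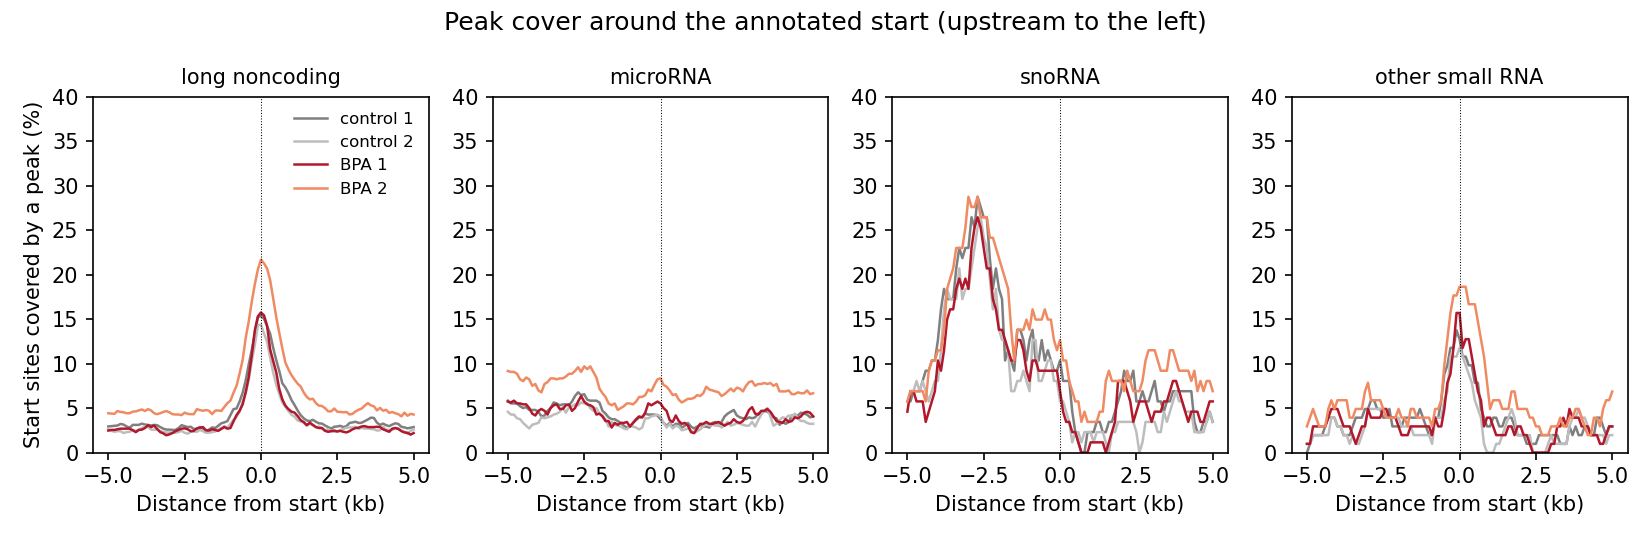
Share of start sites covered by a peak (vertical axis, percent) at each distance from the annotated start (horizontal axis, kb, upstream to the left), by class; each line is a library. Long noncoding and other small RNA genes have a maximum at 0, microRNA hairpins stay nearly level, and snoRNA genes have their maximum upstream.

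Small RNAs in coding hosts mostly had no peak at their own 5′ end, while the start of the host had one. Of 533 microRNA hairpins inside a coding gene on the same strand, 16 (3.00%) were open in all 4 libraries, while 444 (83.3%) had a host with a start site open in all 4. The median distance from hairpin to host start was 25954 bp. Noncoding hosts of microRNAs were different, with 23 of 88 hairpins (26.1%) having a host open in all 4 and 3 (3.41%) open themselves. Of 339 hairpins without a host, 280 had no peak in any library and 25 (7.37%) were open in all 4. Among the 55 snoRNA genes in coding hosts, none was open in all 4 at its own end, and 53 (96.4%) had a host that was. Of 29 snoRNA genes in noncoding hosts, 7 (24.1%) were open in all 4. The 2 kb rule had removed small RNAs near a coding host start, but not those near a noncoding one. The median distance to the host start was 6528 bp for snoRNA genes in coding hosts and 1632.5 bp in noncoding ones. For hairpins in noncoding hosts it was 5743 bp. A low share open at small RNAs in coding hosts is thus partly built into the choice of members.

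Among snoRNA genes with a known distance to the host start, those open in all libraries lay within 1 kb of it. Of 9 snoRNA genes within 1 kb, 8 had a peak in some library and 6 were open in all. Between 1 and 2 kb, 3 of 7 had a peak in some library, and between 2 and 5 kb 1 of 34. Between 5 and 20 kb it was 1 of 16, and beyond 20 kb 1 of 17. None of those beyond 1 kb was open in all libraries. Snora26, 470 bp into Dancr, therefore had the very peak of Dancr, as Snora24 had that of Snhg8, and Snord49a and Snord49b that of 2410006H16Rik. These sites are no independent observations. The pair without a host that was open in all libraries, Snord118 and Scarna2, encode U8, a guide in the processing of ribosomal RNA, and a guide RNA of Cajal bodies. Their ranks were 34.7, 54.3, 39.1 and 12.8 at Snord118 and 10.7, 7.78, 13.3 and 6.96 at Scarna2, in the usual order of libraries. Snord118 is thus among the middling peaks of 3 libraries and Scarna2 among the strong ones of all.

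Noncoding promoters that were open had weaker peaks than coding ones. Among members open in all 4 libraries the median ranks of the controls were 19.8 and 21.0 and those of the BPA libraries 19.6 and 13.7. The medians at coding start sites were 8.62, 10.2, 8.44 and 5.89. The median fold over local background was 5.12, 5.62, 7.92 and 7.76 at members and 6.11, 6.85, 10.7 and 9.81 at coding starts. The 9 snoRNA genes were the exception, with median ranks from 3.74 to 5.94, and 7 of them lay in noncoding hosts.

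Long noncoding promoters that were open were richer in CpG. A region was called CpG-rich when its G+C content exceeded 50% and its ratio of observed to expected CpG exceeded 0.6. Of the long noncoding start sites 193 (6.82%) were CpG-rich, against 47.6% of coding start sites. CpG-rich long noncoding start sites were open at 63.2%, 62.2%, 68.4% and 74.1%, and CpG-poor ones at 17.9%, 17.6%, 19.1% and 24.8%. Long noncoding starts stayed below coding starts in both classes. Among coding starts the CpG-rich were open at between 90.7% and 96.7%, and the CpG-poor at between 32.6% and 40.6%. In every library the intervals of the coding and long noncoding shares did not overlap within either class. Among long noncoding start sites open in all 4 libraries the median G+C content was 51.2%, the median CpG ratio 0.432 and the CpG-rich share 27.3%. Among those open in none these were 46.1%, 0.218 and 2.58%. Other small RNA genes went the other way: CpG-rich ones were open at between 9.30% and 16.3% and CpG-poor ones at between 20.3% and 27.1%, with all 33 genes of 5S rRNA among the 43 CpG-rich ones.

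**Figure D3:**
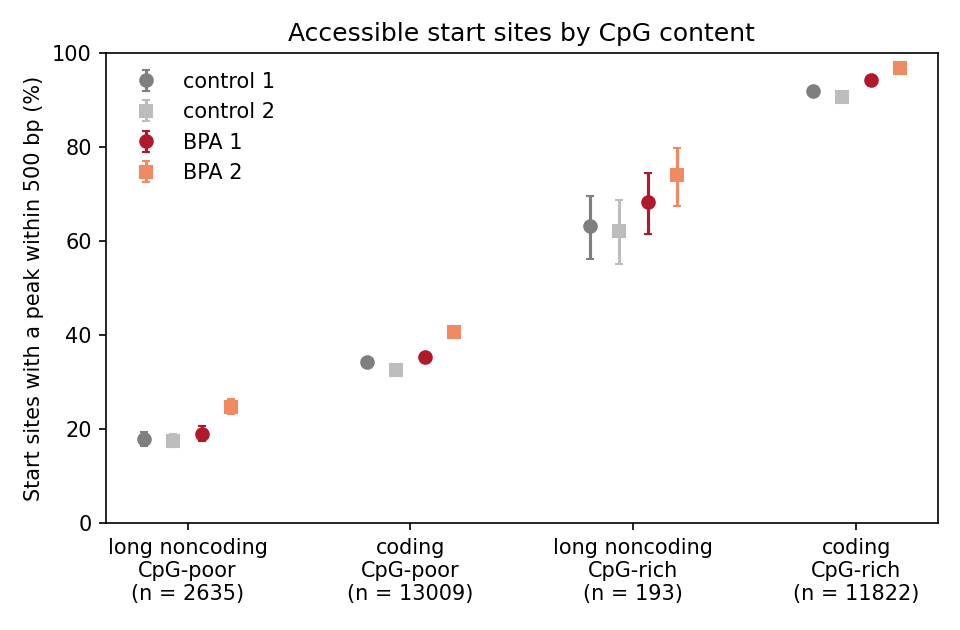
Share of start sites with a peak within 500 bp (vertical axis, percent) for CpG-poor and CpG-rich start sites of long noncoding and coding genes; points are single libraries and bars are Wilson 95% intervals. CpG-rich long noncoding starts lie between 62.2% and 74.1%, below CpG-rich coding starts at 90.7% or more.

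Among the motifs the GC box differed most between long noncoding promoters with and without a peak. Of 2828 long noncoding start sites, 1953 had a promoter sequence in RefSeq's table. The GC box was present in 35.4% of the 316 promoters open in all libraries and in 10.1% of the 1252 open in none, against 36.0% of all 31396 promoters of the same 300 bases. The ETS motif was present in 7.59% and 3.12% of these, against 9.0% of all. CCAAT was present in 36.1% and 41.4%, against 37.3%, and TATA in 11.1% and 15.8%, against 13.6%. The GC box consists of G and C alone, so its share moves with base composition.

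The share of open members also varied with distance from coding genes and with the kind of gene. Averaged over libraries and with all classes pooled, 15.2% of members between 2 and 3 kb from a coding start were open. The share was 25.8% between 5 and 10 kb and 12.1% beyond 200 kb. The mix of classes at each distance was not separated. The long noncoding share was 23.0% over all members and 23.0% beyond 5 kb, while the snoRNA share was 14.4% and 19.6%. Just outside the rule, between 1 and 2 kb, the share was 37.2%. Genes named as hosts of small RNAs, with 27 start sites, were open at between 66.7% and 77.8%. Transcribed pseudogenes in the long noncoding class, with 365 start sites, were open at between 9.86% and 12.9%. Members with clone names gave near-equal shares: 1143 long noncoding start sites with Rik symbols averaged 22.4% and 1194 with Gm symbols 22.3%. Long noncoding start sites inside a coding gene on the opposite strand averaged 22.2% ± 4.28 (SD over the 4 libraries) and those outside coding genes on both strands 23.4% ± 3.26. By library the former were open at 19.7%, 19.7%, 20.9% and 28.6% and the latter at 21.5%, 21.0%, 23.0% and 28.1%. The former were thus lower in both controls and BPA 1 and higher in BPA 2.

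The strongest long noncoding promoter was that of 1700028E10Rik (chromosome 5, start 151368675, plus strand), a gene known by a clone name, 178482 bp from the nearest coding start. Its ranks were 0.471 and 0.959 in the controls and 0.300 and 0.273 in the BPA libraries, and its summits lay 35 to 129 bp from the start. Its promoter sequence above holds 2 GC boxes and an ETS match. Dancr (chromosome 5, start 74093060, plus strand), a transcript that restrains differentiation of progenitor cells, had ranks of 1.48, 0.245, 0.855 and 1.54, and its promoter holds 3 CCAAT matches. Snhg8, the host of Snora24, had ranks of 2.12, 0.746, 0.573 and 0.746, with 4 GC boxes and a TATA match 30 bases before the start. These promoters were thus near the top of every list. The other 7 long noncoding genes with the best worst rank were 1700012D14Rik, 4932412D23Rik, 1700096K18Rik, 1700113A16Rik, Gm10433, A230028O05Rik and Chaserr, a neighbour and repressor of Chd2. Chaserr ranked at 2.76, 0.934, 0.596 and 0.794.

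Among genes known from fat or from imprinted loci, 20 of the 27 listed were members, with 23 start sites, of which 14 were open in all libraries, against 14.4% of long noncoding and 51.1% of all curated start sites. The start sites of Neat1 shared a peak, as did those of Pvt1, so the 14 are not all separate observations. Terc is in the class of other small RNAs, of which 13.7% were open in all libraries. Oip5os1, also called Cyrano, a conserved RNA that directs the decay of miR-7, ranked at 1.74, 3.30, 3.62 and 3.11. Kcnq1ot1, the imprinted antisense RNA of the Kcnq1 domain, had closely spaced ranks of 8.68, 10.6, 10.4 and 11.6. Its summits lay at -105, -117, -106 and 20 bp from the start, and its folds over background were 7.26, 7.52, 9.80 and 7.41. Airn, the antisense RNA of the imprinted Igf2r locus, ranked at 33.5, 36.0, 22.4 and 14.0. Peg13, an imprinted RNA, ranked at 10.4, 16.3, 18.7 and 8.19, Dleu2, which hosts miR-15a and miR-16-1, at 12.1, 18.8, 10.3 and 7.65. The repressive imprinted transcripts Kcnq1ot1 and Airn were therefore open in all 4 libraries.

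Several other imprinted genes had no peak. Neither H19, nor the pair of Meg3 start sites, nor Rian and Mirg, which lie in the Dlk1-Dio3 domain with Meg3, had a peak in any library. The domain was not without peaks, since the hairpins Mir136 and Mir3071, between Meg3 and Rian, were open in all libraries. Rmst, a neural transcript, had no peak either. Hotair, a transcript of the Hoxc cluster, was open in control 2 alone at a rank of 99.5, and Norad and Miat were open in BPA 2 alone at 73.7 and 78.7. These weak single-library peaks lie in the last part of each list.

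Malat1 and Neat1, neighbouring genes of abundant nuclear RNAs, were open in all libraries and ranked better in both BPA libraries. Malat1 (chromosome 19, start 5802672, minus strand) had ranks of 49.3 and 84.4 in the controls and 5.90 and 4.96 in the BPA libraries. Its folds over background were 2.86, 2.37, 6.69 and 5.77, with both BPA libraries beyond both controls on either scale. In control 1, BPA 1 and BPA 2 the peak was between 1504 and 2308 bp wide and its summit lay at -957, -1010 and -823 bp, upstream of the annotated start. In control 2 it was a different peak, 187 bp wide with its summit at 63 bp, so that the values of control 2 do not describe the same stretch of chromatin as those of the other libraries. Neat1, which builds the nuclear paraspeckles and has a pair of adjacent start sites under the same peak, ranked at 32.0, 53.8, 11.7 and 11.0, with folds of 2.79, 2.49, 3.58 and 2.98. Ranks that were better in both BPA libraries were common: they were found at 41.7% of the 15418 curated start sites open in all 4 libraries, and at 154 of 473 members (32.6%). The opposite order was found at 18% of all and at 102 members (21.6%). The endothelial promoters named above, open at 2, 2, 8 and 8 of 8, moved the same way. The 12 endothelial microRNA members, open at 1, 3, 2 and 1, did not. The part of endothelial cells in this result was not tested. In whole tissue, fewer nuclei of a cell type and less open chromatin in each nucleus cannot be told apart.

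**Figure D4:**
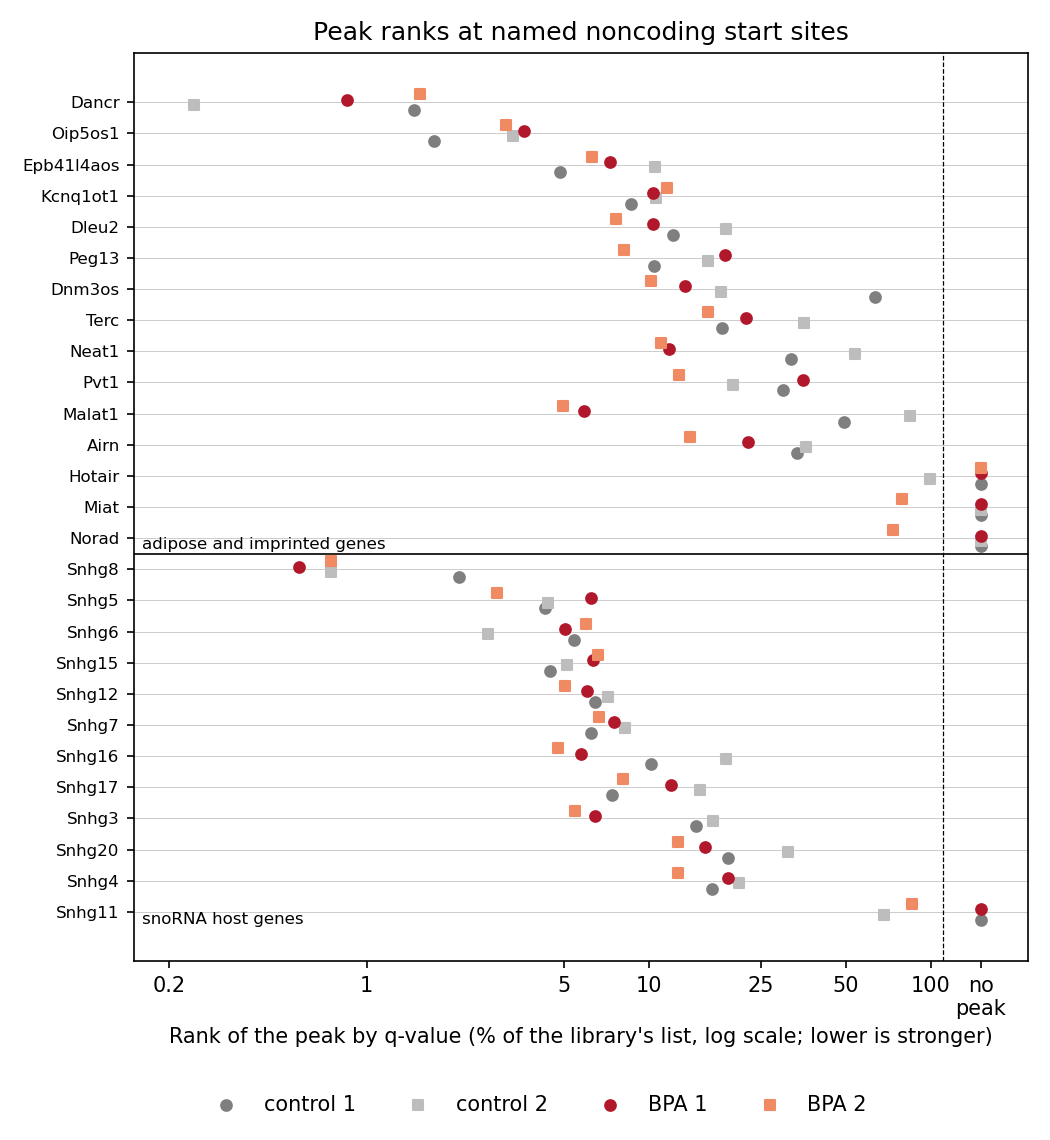
Rank of the peak at listed start sites with a peak in at least 1 library (horizontal axis, percent of the library's peak list by q-value, log scale, lower is stronger), with sites lacking a peak at the right; each point is a library. The snoRNA host genes cluster at low ranks in all libraries apart from Snhg11, while Malat1 and Neat1 have both BPA libraries to the left of both controls.

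Of 13 member start sites in 12 snoRNA host genes with Snhg names, 12 were open in all libraries, against 14.4% of long noncoding and 51.1% of all curated start sites. All but those of Snhg4 and Snhg11 were CpG-rich, and of CpG-rich long noncoding start sites 57.5% were open in all libraries. The start sites of Snhg17 shared a peak. After Snhg8, the best were Snhg5, with ranks of 4.29, 4.41, 6.25 and 2.90, and Snhg6, with 5.44, 2.69, 5.05 and 6.0. The others open in all libraries ranked between 4.46 and 31.2. Snhg11, a transcript of neurons, was the exception, with a peak in control 2 at 68.3 and in BPA 2 at 85.9. Among hosts of microRNAs, with 14 start sites in 11 genes, 4 start sites were open in all libraries and 5 in none. Mir22hg was the strongest, at 5.58, 3.41, 4.39 and 5.99. Mir100hg, host of miR-100, let-7a-2 and miR-125b-1, had 3 start sites, with the middle one at 9.08, 13.4, 14.0 and 10.8. Mir99ahg ranked at 14.8, 35.3, 19.3 and 12.9. Mir155hg had a peak in control 1 alone, and Mir17hg, host of the miR-17-92 cluster, had none.

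The microRNA hairpin with the strongest peak was Mir210 (chromosome 7, start 141221493, minus strand), whose product is induced by low oxygen. Its ranks were 6.25, 4.19, 3.84 and 4.74, and its folds over background 6.45, 8.14, 13 and 11.1. The summits lay at between -330 and -490 bp, upstream of the hairpin. Mir148a, a microRNA that promotes adipogenesis, was open in all libraries at 13, 11.3, 21.6 and 13.9, with summits at between -978 and -1143 bp from the hairpin start. Mir30a ranked at 11.1, 22.7, 71.6 and 34.7, better in both controls than in either BPA library. Mir132 and Mir212, which share a primary transcript and a seed, had a single peak between them at 97.7, 82.7, 63.9 and 13.4. Mir199a-2 lies 191 bp into Dnm3os and had the same peak, at 63.1, 18.1, 13.4 and 10.2. Only the first of these hairpins was in the best 10% of every list.

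Most microRNAs with known roles in fat had no peak at the hairpin, as was true of microRNA hairpins in general. Of 27 listed adipocyte-related microRNA members, 4 were open in all libraries, namely Mir30a, Mir148a, Mir203 and Mir145a, and 18 had no peak. Over all 960 hairpins 799 (83.2%) had no peak in any library and 4.58% were open in all. Those without a peak on the list included Mir27a, Mir27b, Mir103-1, Mir103-2, Mir107, Mir130a, Mir143, Mir193b and Mir21a. Since most of these are processed from longer transcripts, a hairpin without a peak says nothing about the promoter of the primary transcript. Among 12 endothelial microRNA members 1 was open in all libraries, Mir199a-2, and 8 in none. Mir126a, an endothelial microRNA in an intron of Egfl7, had a peak in control 2 alone at 52.2. Among 5 leukocyte microRNA members, Mir150 was open in all libraries at ranks of 76.9, 85.9, 91.5 and 47.0, and Mir142 in both BPA libraries alone. Mir155 had a peak in control 1 alone at 36.9, and the other 2 had none.

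Small RNA genes with a promoter of their own were open in part. Rn7sk, whose RNA holds the elongation factor P-TEFb inactive, ranked at 3.59, 5.11, 5.49 and 1.2. Its summits lay upstream of the start, at -968, -953, -369 and -523 bp, so that only that of BPA 1 was inside the region. Rny1 ranked at 6.06, 8.48, 10.5 and 8.42, and Rny3 at 10.2, 17.6, 51.3 and 13.6. Terc, the RNA template of telomerase, ranked at 18.2, 35.5, 22.1 and 16.3. Of the 10 snRNA genes in this class, 5 were open in all libraries, namely Rn7sk, Rnu11, Rnu1a1, Rnu2-10 and Rnu5g, and 5 in none. All 33 genes of 5S rRNA had no peak in any library. The authors kept only reads that mapped to a single place, and these 33 genes are near-identical copies with a median of 71.0% of the region masked as repeats, so that a lack of peaks there cannot be read as closed chromatin.

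Both BPA libraries and neither control had a peak at 139 members (3.50%), in 128 distinct regions. The same pattern was found at 2.96% of all curated start sites, so the members were close to the background. Of these, 104 were long noncoding start sites, 31 microRNA hairpins and 4 other small RNA genes. The opposite pattern, a peak in both controls and neither BPA library, was found at 26 members (0.654%) and at 0.447% of all curated start sites. The group means moved the same way, with 698 open members ± 5.66 in controls and 862.5 ± 136 in BPA (SD, n = 2 each). The groups did not overlap, but the spread between the BPA libraries was of the order of the difference, and with 2 libraries per group the smallest two-sided p of an exact permutation test is 0.333. Over all curated start sites the means were 16793 ± 269 in controls and 18137.5 ± 868 in BPA, again without overlap between the groups. Leaving out BPA 1, the shallowest library, raised the count of BPA-only members to 274. The control-only count rose to 40 without BPA 1, 72 without BPA 2, 71 without control 1 and 86 without control 2, since fewer libraries then have to lack or hold a peak.

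The peaks seen in one group only were weaker than those at members open in all libraries. The BPA-only peaks had a median rank of 52.7 in BPA 1 and 39.5 in BPA 2, against 19.6 and 13.7 at members open in all 4. Of the 139 BPA-only members, 12 were in the best 25% of both lists and 55 in the best 50%. The control-only peaks had a median rank of 51.5 and 57.4, against 19.8 and 21.0 at members open in all 4. None of the 26 was in the best 25% of both lists, and 6 were in the best 50%. The median G+C content was 51.6% at BPA-only members and 44.3% at control-only members. A CpG-rich region was found at 15 of the former and 1 of the latter.

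The strongest BPA-only long noncoding site belonged to 9430078K24Rik (chromosome 12, start 79936264, minus strand), 176749 bp from the nearest coding start, with ranks of 10.4 in BPA 1 and 9.19 in BPA 2 and pile-ups at the summit of 59 and 165. Its summit lay at -626 bp, upstream of the start, in both libraries, outside the sequence shown. The other start sites of this gene were also open in both BPA libraries alone, at a shared peak with folds of 6.04 and 3.66. Gm32865 (chromosome 16, start 87128439, minus strand) followed with 12.1 and 12.2, and its summits lay at -53 and 24 bp from the start. Its promoter above holds 2 AP-1 matches and a CRE. H2-K2 (chromosome 17, start 33978791, minus strand), a gene of the major histocompatibility complex with noncoding transcripts only in this annotation, ranked at 12.4 and 10.5 with folds of 15.2 and 15.4. H2 genes are near-copies of one another, so the placing of its reads is uncertain. Gm12925, antisense within Macf1, ranked at 13.3 and 6.74 with summits more than 1 kb upstream, Gm16104, antisense within Nfic, at 15.1 and 14.6, and Plxna4os1 at 17.1 and 13.6. Gm13387, A330032B11Rik, AI839979 and D630033O11Rik completed the 10 best, at ranks between 11.9 and 21.2. The endothelial marker promoters showed the same pattern at 6 of 8. The 12 endothelial microRNA members did not, being open at 1, 3, 2 and 1 in the usual order of libraries, with none in both BPA libraries alone. The part of endothelial cells in the result was not tested.

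Among the BPA-only microRNA hairpins were those of Mir9-1, Mir9-3 and Mir124a-3, known from the nervous system and lying in CpG-rich regions. Their paralogues did not share the pattern: Mir9-2 had a peak in control 2 alone at 91.3, Mir124a-1 in BPA 2 alone at 95.7, and Mir124a-2 none. Mir9-1 ranked at 37.5 in BPA 1 and 35.7 in BPA 2 and shared its peak with Mir3093. Mir9-3 ranked at 84.3 and 75.6 and Mir124a-3 at 57.6 and 51.7. The hosts of Mir9-3 and Mir124a-1, Mir9-3hg and Mir124a-1hg, each had a start site open in both BPA libraries alone, at 92.2 and 83.3 and at 94.3 and 51.0. Mir9-1, Mir9-3 and Mir124a-3 were 3 of 15 listed microRNAs of other tissues, none of which was open in all libraries. The BPA-only pattern was found at 3.23% of all hairpins and at 4 of the 24 CpG-rich ones (16.7%). Mir142 and Mir142b, opposite strands of a locus active in blood cells, shared a peak at 28.4 and 28.3, with pile-ups of 38 and 112. Mir199b, whose 3p product is that of miR-199a, ranked at 23.5 and 22.1. Mir33, in an intron of Srebf2, had among the weakest of these peaks, at 99.7 and 72.9, with a pile-up of 6 in BPA 1. Leukocyte markers were open at 2, 3, 4 and 4 of 6 promoters, and their part in these differences was not tested. The 5 listed leukocyte microRNA members were open at 2, 1, 2 and 2 in the same order.

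Of the 8 control-only microRNA hairpins, 4 belonged to the Mir344 cluster (chromosome 7, 61663192 to 62105310 with flanks), a row of 13 related hairpins on the minus strand. Mir344-2 ranked at 26.9 in control 1 and 39.8 in control 2, Mir344c at 29.7 and 52.1, Mir344 at 45.3 and 76.6, and Mir344g at 78.7 and 86.7. Mir344b had a peak in control 2 alone, at 61.8. Across the 442 kb there were 10 peaks in control 1, 9 in control 2 and none in either BPA library. The 500 kb on both sides held 15, 14, 5 and 5. The peaks were weak, with median ranks of 80.1 and 76.6 and median pile-ups of 12 and 13. Their local background was 1.01 and 1.06 times the lowest of the library, against 1.60 and 1.58 over all peaks of these libraries. The 4 hairpins share the 5p seed GUCAGGC with Mir344b and with Mir344d-1 and Mir344d-3, which had no peak in any library. Reads that fit several copies equally were dropped by the authors. The part of this in the result was not tested.

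**Figure D5:**
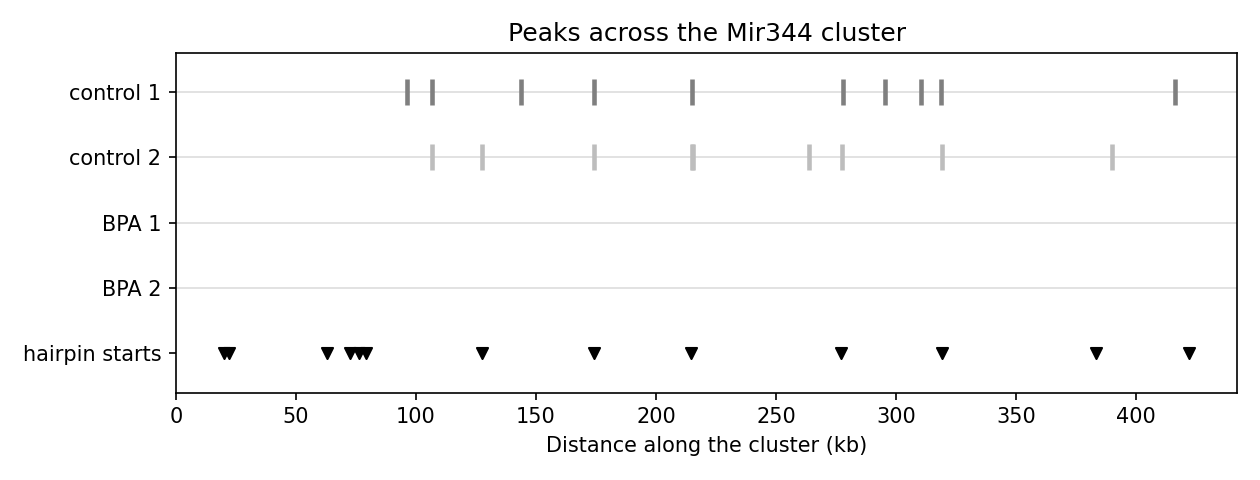
Peaks (ticks) by library and hairpin starts (triangles) along the Mir344 cluster (horizontal axis, kb from the start of the 442 kb shown). Control 1 has 10 peaks and control 2 has 9, several of them at hairpins, and neither BPA library has any.

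The other control-only sites were long noncoding genes and single hairpins. Gm9564 (chromosome 8, start 112028303, minus strand) had the best worst rank, at 14.0 in control 1 and 33.0 in control 2, with pile-ups of 36 and 24. Another start site of this gene, closer to that peak, had a peak in BPA 1 as well, with a pile-up of 13, so that the gene as a whole was not open in the controls alone. Gm17308 ranked at 28.7 and 33.5, F630042J09Rik at 20.2 and 34.6, and 4930545L08Rik at 37.1 and 25.2. Mir3962 ranked at 31.5 and 55.3, and Mir6349, Mir6715 and Mir761 at between 45.5 and 98.8. No site of this kind had a rank better than 14.0 in any control library.

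Few of these peaks were the edge of a coding promoter. The peak assigned to an open member also covered a coding start at 4 of 702 and 0 of 694 members in the controls and at 1 of 766 and 5 of 959 in the BPA libraries.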

How the data were processed

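Per the labels and the study's methods, the authors trimmed reads with trim_galore, aligned them to mm10 with bowtie2 2.3.5.1, kept uniquely mapped reads, removed duplicates with samtools and called peaks with macs2 2.2.7.1 in each of the 4 libraries alone. Replicates were not pooled, and other caller options were not given in the sources used here. The deposited peak lists hold an integer score, the fold over local background (a ratio), the −log10 p-value and the −log10 q-value of each peak, all as the authors' caller wrote them. No read counts or library totals were used here, so depth was read only from the background the caller's values imply.

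Start sites, gene classes and hosts were taken from the curated RefSeq annotation of GRCm38.p6 with Python 3.11.15, pandas 2.3.3, numpy 2.4.6 and scipy 1.17.1, and figures were drawn with matplotlib 3.10.9. A microRNA gene had a Mir or Mirlet symbol and a transcript under 200 nt, a snoRNA gene a Snord, Snora or Scarna symbol and a transcript under 500 nt. Other small RNAs were under 200 nt, or were Rn7sk, Rn7s1, Rn7s2, Rmrp, Rpph1 or Terc. A host was a gene on the same strand that spanned the small RNA. Where several peaks reached a region, the one with the best q-value was used. The pile-up at the summit and the local background were recovered from the fold and p-value of the caller, and this step was tested on simulated data. Sequences for 815 of 960 microRNA members and 1953 of 2828 long noncoding start sites were found in RefSeq's tables.

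Genes were named by rule: the best by worst rank among members open in all libraries, in both BPA libraries alone and in both controls alone, and the members of fixed lists. Members, lists and rules were chosen with earlier results of these data known. No test compared the groups, since 2 libraries stood against 2, and intervals are Wilson 95% intervals for counting error only. The study's text gives 4 mice for the 4 libraries. BPA 2 was matched to its file by the deposited record, since the file carries another replicate number.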

Additional observations from a re-analysis of the deposited data

How the results depend on the processing

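No group difference was tested. Counts and shares cannot change sign, and the gap to coding start sites, the only value that could, kept its sign under every alternative. Of 130 recomputed values, 101 moved by less than the spread between libraries or, for counts, by less than 1.5 times. The mean number of open members in controls, 698, became 556 with only peaks of −log10 q of at least 5, 655.5 with equal numbers of peaks per library, 609.5 with regions of 250 bp, 843.5 with 1000 bp, 541 where the summit had to lie in the region, 639 with members more than 5 kb from a coding start, 659 with predicted coding starts also avoided, 661.5 with 1 start site per gene and 662 without pseudogenes. The BPA mean, 862.5, became 1018.5 with 1000 bp and 648.5 by the summit. Within the spread between the BPA libraries, it became 780 with the stricter q-value and 801.5 with equal numbers of peaks. The share of open long noncoding start sites, 23.0%, became 26.8% with 1000 bp and 18.1% by the summit. The microRNA share, 10.1%, became 7.68% with 250 bp, 14.0% with 1000 bp and 6.30% by the summit. The snoRNA share, 14.4%, became 21.3% with 1000 bp, 6.90% by the summit and 19.6% beyond 5 kb, and the share of other small RNAs, 18.9%, became 15.4% by the summit. The gap to coding start sites, 43.6 points, was 44.5 with 250 bp, 42.0 with 1000 bp, 41.3 by the summit and 42.7 without pseudogenes. Leaving out a library gave 160 to 274 BPA-only and 40 to 86 control-only members, since a pattern over 3 libraries is easier to meet. No paired analysis was possible because the results come from no test, and 2 replicate numbers shared by both groups are too few for one to pass a threshold. The depth of the libraries limits weak peaks, and a missing peak is no measurement of closed chromatin.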
